A study of Mus musculus with 16 samples.

Results

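The light strand of mouse mitochondrial DNA encodes 9 annotated RNAs, the mRNA mt-Nd6 and the tRNAs mt-Tq, mt-Ta, mt-Tn, mt-Tc, mt-Ty, mt-Ts1, mt-Te and mt-Tp, and the RNase footprints on these transcripts were compared between heart mitochondria with and without LRPPRC. A footprint was taken as a member when it lay on the minus strand and its largest overlap with a gene on that strand, of at least 1 nt, was with one of the 9 genes. This gave 19 of the 302 deposited footprints, 9 of the 178 called on the control track and 10 of the 124 called on the knockout track. The control mice were *Lrpprc* loxP/loxP and the knockout mice *Lrpprc* loxP/loxP,Cre+, a conditional knockout in heart and skeletal muscle, and all were males aged 12 weeks on a C57BL/6N background. The promoter that drives Cre and the number of mice per library are not given in the sources used here. Lysed heart mitochondria were left mock-treated or were digested with 1 of 3 nucleases, 10 U/µl of RNase A, 0.1 U/µl of RNase T1 and 0.01 U/µl of RNase If, and the resulting 4 libraries per genotype were merged into a single track. There are therefore no replicates, no error between mice and no test of any difference below, and the libraries of *Slirp* mice were not analysed here.

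Transcription of mitochondrial DNA runs from promoters on both strands and gives long precursor RNAs, from which the tRNAs are cut out and the mRNAs and rRNAs between them released. The heavy-strand precursor carries the rRNAs, most tRNAs and all other mRNAs, whereas the light-strand precursor carries a single mRNA, long stretches that lie opposite the heavy-strand genes, and the remaining tRNAs. mt-Nd6 encodes a membrane subunit of respiratory complex I, and the tRNAs carry glutamine (mt-Tq), alanine (mt-Ta), asparagine (mt-Tn), cysteine (mt-Tc), tyrosine (mt-Ty), serine (mt-Ts1), glutamate (mt-Te) and proline (mt-Tp). LRPPRC is a pentatricopeptide repeat protein that binds mitochondrial mRNAs together with SLIRP, and it is known for its part in their stability, polyadenylation and translation. The authors report mt-Nd6 as the exception among the mRNAs, since it lacks polyadenylation and its stability did not fall without LRPPRC. They also do not count tRNAs among the direct targets of LRPPRC.

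The C score of a base is the log10 ratio of the highest RNase-treated over the mock-treated normalized 5′ coverage. Coverage is taken at the next base downstream, and a pseudocount is added to both terms. Coverage is normalized to library size, so a score compares shares of libraries and not amounts of cutting. A score above 0 thus marks a higher share of fragment starts in at least 1 RNase-treated library than in the mock-treated one. The F score of a footprint is the accessibility of its centre over that of the 3 nt on the left, plus the same over the 3 nt on the right, and a lower F score is a deeper footprint. A listed footprint had a centre less accessible than its flanks on the track it was called on. Its F score also differed between the genotypes at an FDR of 5% by the authors' shuffling of C scores. For footprints called on the control track the F score was higher in the knockout, and for those called on the knockout track lower. The methods also require a central C score higher in the experiment than in the control, without separate wording for the knockout track. The C and F scores below were therefore part of the selection. Absence from a list thus does not mean that no protein or structure covered a stretch, and the C and F scores given here are those of the calling track alone. On their own track the footprints are named control-called or knockout-called.

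The footprint sequences that the results turn on are shown as RNA, 5′ to 3′, with the footprint in capitals and the flanks of 3 nt that enter the F score in lower case, on the minus strand of mm10. The first set is the middle of mt-Nd6, where footprints of both lists lie side by side, and the overlapping pair nearer to its 3′ end.
mt-Nd6, knockout-called, chrM:13883-13891: uuuAGGGGGGAUguu
mt-Nd6, control-called, chrM:13862-13874: uugUGUUUGGAUAUACgac
mt-Nd6, knockout-called, chrM:13852-13862: auaCGACUGCUAUAgcu
mt-Nd6, control-called, chrM:13835-13850: uagCUACUGAGGAAUAUCCaga
mt-Nd6, knockout-called, chrM:13694-13721: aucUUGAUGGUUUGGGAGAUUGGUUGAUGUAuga
mt-Nd6, control-called, chrM:13687-13707: ggaGAUUGGUUGAUGUAUGAGGUUgau
The second set holds the tRNA footprints with the lowest F scores and those that were called on both tracks at one site.
mt-Te, control-called, chrM:14093-14102: uguCAUUGGUCGCagu
mt-Te, knockout-called, chrM:14082-14102: uguCAUUGGUCGCAGUUGAAUGCUgug
mt-Ta, knockout-called, chrM:5037-5054: uugCAUUCAAUAGAUGUAGGAuga
mt-Ts1, knockout-called, chrM:6919-6928: acaUAUAGGAUAUgag
mt-Tp, control-called, chrM:15375-15394: agcUUUGGGUGCUGGUGGUGGGGagu
mt-Tp, knockout-called, chrM:15380-15390: uugGGUGCUGGUGGugg
For orientation, the whole tRNAs of both genes with overlapping footprints follow, with the anticodon in capitals.
mt-Te, chrM:14071-14139: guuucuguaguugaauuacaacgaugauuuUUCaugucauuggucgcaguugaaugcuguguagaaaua
mt-Tp, chrM:15356-15422: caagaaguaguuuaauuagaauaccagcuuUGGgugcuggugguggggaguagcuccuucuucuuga

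Among the footprints of the light-strand genes 52.6% were knockout-called (10 of 19, 95% Wilson interval 31.7 to 72.7%, for the counting of footprints only). Over all footprints the share was 41.1% (124 of 302) and over those of the minus strand 50% (31 of 62), both within that interval. Both of these sets include the members themselves. The mRNA and the tRNAs differed in the balance of the lists. On mt-Nd6 lay 5 control-called and 3 knockout-called footprints, and on the 8 tRNAs 4 control-called and 7 knockout-called footprints. The knockout-called share was 37.5% for mt-Nd6 (13.7 to 69.4%) and 63.6% for the light-strand tRNAs (35.4 to 84.8%), and these intervals overlap widely. The 14 heavy-strand tRNAs held 11 control-called and 5 knockout-called footprints, a share of 31.2% (14.2 to 55.6%), whose interval also overlaps that of the light-strand tRNAs. On the 12 heavy-strand mRNAs the lists held 102 and 62 footprints, a share of 37.8%, near that of mt-Nd6.

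Per kb of sequence, mt-Nd6 carried 9.63 control-called and 5.78 knockout-called footprints, against 9.37 and 5.70 on the heavy-strand mRNAs together. The light-strand tRNAs carried 7.29 and 12.8 per kb, and the heavy-strand tRNAs 11.6 and 5.25. The mRNA or rRNA genes with the pair of densities nearest to that of mt-Nd6, of 14 genes compared, were mt-Rnr1, the 12S rRNA, at a distance of 1.56 per kb, mt-Cytb, the cytochrome b mRNA, at 1.67, and mt-Atp6, which encodes a subunit of ATP synthase, at 2.96. The other mRNAs for complex I subunits, mt-Nd1, mt-Nd2, mt-Nd3, mt-Nd4l, mt-Nd4 and mt-Nd5, held 36 control-called footprints on all 6 genes and 33 knockout-called footprints on 4 of them. Footprints covered 154 nt of the light-strand genes in each list, 14.4% of their 1068 nt. Of the 270 nt covered in either list 38 nt (14.1%) were covered in both, against 7.35% on the heavy-strand mRNAs (212 of 2886 nt), 5.63% on the heavy-strand tRNAs (13 of 231 nt) and 9.88% on the rRNAs (76 of 769 nt). On mt-Nd6 the covered length was 86 nt (16.6%) in the control list and 48 nt (9.25%) in the knockout list, and on the tRNAs 68 nt (12.4%) and 106 nt (19.3%).

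The footprints on mt-Nd6 (ENSMUSG00000064368.1, chrM 13552 to 14070, minus strand, 519 nt, a single coding exon) left most of the 5′ part of the coding sequence uncovered. The only footprint before nt 180 was control-called, at nt 29 to 37 from the 5′ end of the RNA (chrM 14034 to 14042, codons 10 to 13), with a C score of 0.0616 and an F score of 0.991. Further on, 2 control-called and 2 knockout-called footprints alternated between nt 180 and 236. From the 5′ side these were knockout-called nt 180 to 188 (C score 0.0260, F score 1.31), control-called nt 197 to 209 (0.117 and 0.763), knockout-called nt 209 to 219 (0.0766 and 1.17) and control-called nt 221 to 236 (-0.0408 and 0.627). The inner pair shared 1 nt, and gaps of 8 nt and 1 nt separated the outer ones from their neighbours, as the first sequences above show. All 4 lie in codons 60 to 79.

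Towards the 3′ end of mt-Nd6 a control-called footprint at nt 364 to 384 (codons 122 to 128) had a C score of 0.101 and an F score of 1.12. A knockout-called footprint at nt 350 to 377 (codons 117 to 126), with a C score of 0.123 and an F score of 1.01, overlapped it by 14 nt and lay further towards the 5′ end. The shared stretch is rich in G and U. The last footprint, control-called at nt 411 to 437 (chrM 13634 to 13660, codons 137 to 146), had a C score of -0.0196 and an F score of 0.816 and no partner in the knockout list.

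**Figure D1:**
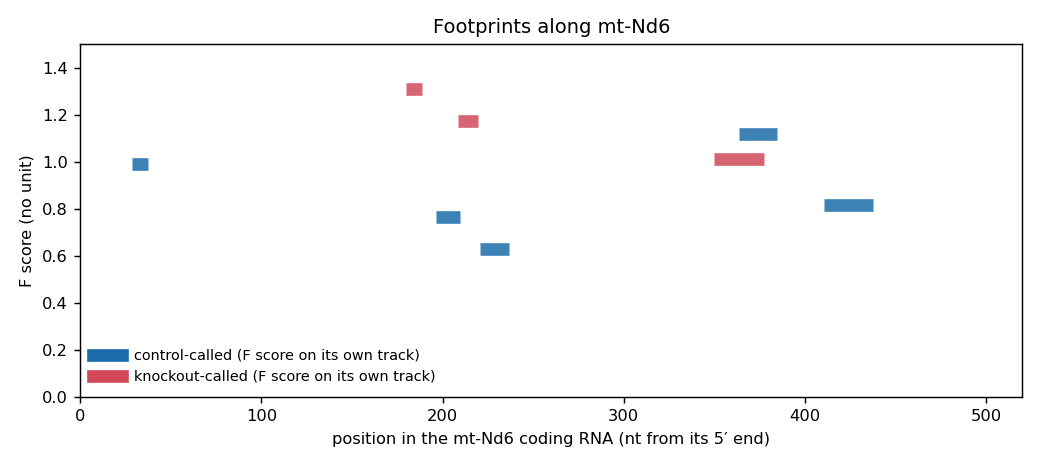
Footprints along the coding RNA of mt-Nd6, with the position in nt from its 5′ end on the horizontal axis and the F score on the calling track (no unit) on the vertical axis; each bar spans 1 footprint, blue for the 5 control-called and red for the 3 knockout-called. Footprints of both lists alternate between nt 180 and 236 and overlap by 14 nt between nt 364 and 377.

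As F scores, the 5 control-called footprints of mt-Nd6 ranged from 0.627 to 1.12 with a median of 0.816, and the 3 knockout-called from 1.01 to 1.31 with a median of 1.17. The ranges overlap, since the control-called footprint at nt 364 to 384 lies above the knockout-called one at nt 350 to 377. The lists as a whole differed in the same direction, with a median F score of 0.826 for all control-called and 1.27 for all knockout-called footprints. The centres of the mt-Nd6 footprints had a median RNase-treated over mock ratio of 1.15 in the control list and 1.19 in the knockout list. The flanks, as the harmonic mean of both sides, were at 2.34 and 2.04. With the pseudocount, such central ratios can also arise where coverage is low with and without RNase, and the deposited scores cannot tell these cases apart. The mt-Nd6 RNA holds 28.1% G, 43.7% U, 22.2% A and 5.97% C, against 11.5% G and 26% C in the heavy-strand mRNAs. RNase T1 cuts after G and RNase A after C and U, so the bases open to each enzyme differ between mt-Nd6 and the other mRNAs, and the part of this in the scores was not tested. Within the footprints of mt-Nd6 the G content was 29.1% over 86 nt in the control list and 39.6% over 48 nt in the knockout list.

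The tRNA footprints were described on the cloverleaf, in which the 5′ and 3′ acceptor strands of 7 nt pair with each other, the anticodon loop is held by a stem of 5 pairs, and the D arm and T arm lie to the left and right of it. Here the D side is all sequence between the 5′ acceptor strand and the anticodon stem, and the T side all sequence between the anticodon stem and the 3′ acceptor strand, variable loop included. In all 8 tRNAs at least 6 of 7 acceptor pairs and 5 of 5 anticodon stem pairs formed in this scheme.

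Control-called footprints were found on 4 of the 8 tRNAs, mt-Tq, mt-Tc, mt-Te and mt-Tp. Knockout-called footprints were found on 5, mt-Ta, mt-Tc, mt-Ts1, mt-Te and mt-Tp, while mt-Tn and mt-Ty held none in either list. Footprints of either list thus lay on 6 of the 8. Of the 14 heavy-strand tRNAs, 9 held control-called footprints, 5 knockout-called ones and 10 footprints of either list. mt-Ta, mt-Tn, mt-Tc and mt-Ty form a run of light-strand tRNAs that brackets the origin of light-strand replication between mt-Tn and mt-Tc. Of that run, mt-Ta and mt-Tc carried footprints. mt-Te lies directly upstream of mt-Nd6 on the same precursor, and mt-Tp is the light-strand tRNA nearest to the control region.

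The tRNA for glutamine, mt-Tq, held a single, control-called footprint at nt 10 to 25 (chrM 3818 to 3833), which covered 16 of the 18 nt of its D side, with a C score of -0.347 and an F score of 0.689. In mt-Tc a control-called footprint covered nt 1 to 22 (chrM 5236 to 5257), with all 7 nt of the 5′ acceptor strand and all 14 nt of the D side (C score -0.131, F score 0.898). The knockout-called footprint of mt-Tc lay 7 nt further towards the 3′ end, at nt 30 to 47 (chrM 5211 to 5228), and covered 4 nt of the anticodon loop, the 3′ strand of the anticodon stem and 9 nt of the T side (C score -0.244, F score 0.642). The footprints of mt-Tc thus did not overlap, and lay on different arms. The knockout-called footprint of mt-Ta, at nt 33 to 50 (chrM 5037 to 5054), covered the same parts, with 3 nt of the anticodon loop, the 3′ strand of the stem and 10 nt of the T side, and its C score was -0.564 and its F score 0.331.

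mt-Ts1 carried knockout-called footprints only. One, at nt 11 to 20 (chrM 6919 to 6928), covered 10 of the 16 nt of its D side with a C score of -0.761, the lowest of all knockout-called footprints, and an F score of 0.450. The other, at nt 37 to 44 (chrM 6895 to 6902), covered 4 nt of the 3′ anticodon stem and 4 nt of the T side with a C score of -0.287 and an F score of 0.596. On mt-Te both lists marked the same site, although the lists differ in the direction of the F score change between genotypes. The control-called footprint spanned nt 38 to 47 (C score -0.741, F score 0.484) and the knockout-called footprint nt 38 to 58 (-0.618 and 0.319), so that they began at the same base in the 3′ anticodon stem and the knockout-called one ran further into the T side.

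On mt-Tp the control-called footprint at nt 29 to 48 (C score -0.0296, F score 0.819) covered the whole anticodon loop, the 3′ strand of its stem and 8 nt of the T side. A knockout-called footprint at nt 33 to 43 (-0.0994 and 0.799) lay wholly inside it, with 11 nt shared and 1 nt of the anticodon. A further knockout-called footprint at nt 47 to 66 (-0.0876 and 1.12) covered 13 nt of the T side and all 7 nt of the 3′ acceptor strand, and overlapped the control-called one by 2 nt. It was the only tRNA footprint here that reached the 3′ acceptor strand. Only fragments of 15 to 35 nt were kept, so a fragment that begins less than 15 nt from the end of a mature tRNA cannot have been counted unless it ran past the annotated end, and the part of this in the scores was not tested.

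**Figure D2:**
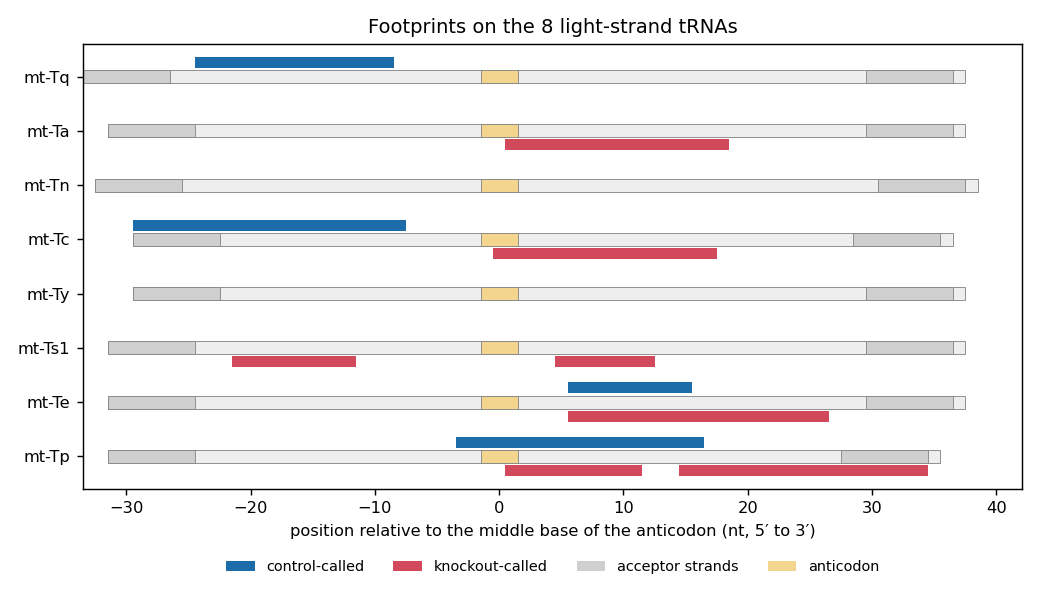
Footprints on the 8 light-strand tRNAs, aligned on the middle base of the anticodon (horizontal axis, nt, 5′ to 3′); blue bars above each tRNA are control-called, red bars below it knockout-called, grey boxes the acceptor strands and yellow boxes the anticodon. Of the 7 knockout-called footprints 6 lie at or 3′ of the anticodon, whereas control-called footprints lie 5′ of it on mt-Tq and mt-Tc and at or 3′ of it on mt-Te and mt-Tp.

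Over the 8 tRNAs, the knockout-called footprints covered 55.0% of the 3′ strand of the anticodon stem (22 of 40 nt) and 34.3% of the T side (57 of 166 nt), and the control-called footprints 20% (8 nt) and 9.04% (15 nt). The D side showed the other order, with 23.6% (30 of 127 nt) control-called and 7.87% (10 nt) knockout-called. Of the 5′ strand of the anticodon stem, control-called footprints covered 1 nt and knockout-called footprints none. The nucleotides of a footprint are not independent, and these shares rest on 4 and 7 footprints. The same shares over the 11 heavy-strand tRNAs whose stems formed in the scheme, compared after their values were seen, were 18.2% and 38.2% for the 3′ strand of the anticodon stem and 17.0% and 18.3% for the T side, knockout-called before control-called. The D side of the heavy-strand tRNAs had the same order as that of the light-strand tRNAs, but on few nucleotides. There, 5.46% (10 of 183 nt) were control-called and 2.73% (5 nt) knockout-called.

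All 11 light-strand tRNA footprints had a C score below 0. On average over their centres, the highest normalized 5′ coverage with RNase was thus below that of mock, as shares of the libraries. Among the light-strand genes together, 6 of 9 control-called and 7 of 10 knockout-called footprints scored below 0 (66.7 and 70.0%). Among all others, 61.5% of the control-called and 19.3% of the knockout-called footprints did. On the heavy-strand tRNAs 5 of 11 control-called and 3 of 5 knockout-called footprints had a score below 0. The counts were 11 of 31 and 11 of 22 on the rRNAs, and 75 of 102 and 3 of 62 on the heavy-strand mRNAs. The mt-Nd6 footprints called on the knockout track were all above 0.

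The median F score of the knockout-called footprints was 0.721 for the light-strand genes and 1.29 for all others of that list, and it was 1.17 on mt-Nd6, 0.596 on the light-strand tRNAs, 0.641 on the heavy-strand tRNAs and 1.36 on the heavy-strand mRNAs. In the control list the medians were closer, at 0.816 for the light-strand genes and 0.827 for all others. Of the 10 knockout-called footprints with the lowest F scores, a count made after the values were seen, 5 lay on light-strand tRNAs (mt-Te, mt-Ta, mt-Ts1 with 2, and mt-Tc) and 3 on heavy-strand tRNAs. In the control list 1 and 1 of the 10 lowest did. Light-strand and heavy-strand tRNAs held 7 and 5 of all 124 knockout-called footprints, and 4 and 11 of all 178 control-called footprints.

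Since the F score is a ratio, the centre and the flanks were also separated. An F score of 0.319, that of the knockout-called footprint of mt-Te, corresponds to flanks 6.28 times as accessible as the centre, with the centre at 0.241 and the harmonic mean of the flanks at 1.51 relative to mock. For the shorter control-called footprint of mt-Te the centre was at 0.182 and the flanks at 0.751. The knockout-called footprint of mt-Ts1 at nt 11 to 20 had a centre of 0.173 and flanks of 0.770. These flank values are harmonic means of both sides, below 1 for these 2 of the 19 footprints, and the sides cannot be told apart from the deposited scores. The light-strand tRNA footprints had a median centre of 0.595 and flank of 1.48 in the control list and of 0.516 and 1.65 in the knockout list.

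**Figure D3:**
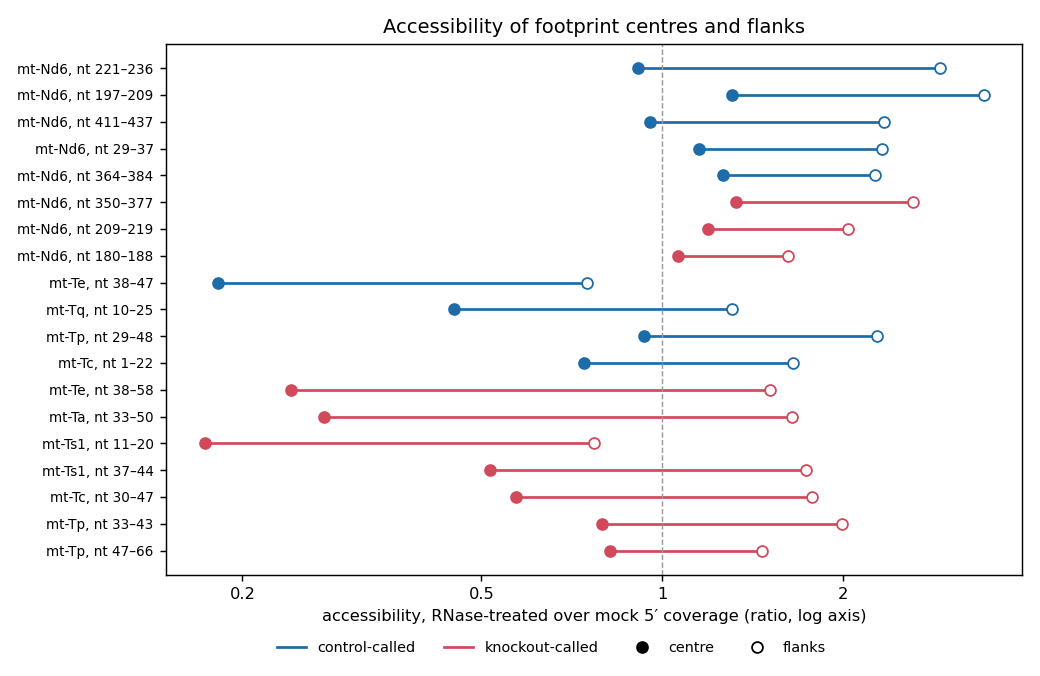
Accessibility of the centre (filled circles) and the flanks (open circles, harmonic mean of both sides) of the 19 light-strand footprints, as the ratio of RNase-treated over mock-treated 5′ coverage, pseudocount included, on a log axis; blue is control-called, red knockout-called, and the dashed line marks a ratio of 1. The centres of mt-Nd6 lie between 0.910 and 1.33 and those of the tRNAs between 0.173 and 0.934.

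Footprints of the lists coincided on the light-strand genes for 4 of the 9 control-called (44.4%) and 5 of the 10 knockout-called footprints (50.0%), with an overlap of at least 1 nt. For all other footprints these shares were 30.8% and 42.1%. The coinciding footprints lay on mt-Nd6 (overlaps of 14 and 1 nt), mt-Te (10 nt) and mt-Tp (11 and 2 nt), so some of them only touched at an edge. Overlapping footprints of the lists have different centres and flanks, so their F scores are not 1 measurement made on both tracks.

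Of all minus-strand footprints, the light-strand genes held 9 of 31 control-called (29.0%) and 10 of 31 knockout-called footprints (32.3%), on 6.55% of the 16299 nt of the genome. The remaining 22 and 21 lay where no gene is annotated on that strand. Coverage along the minus strand is unknown, so the share of length is not an expected share of footprints.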

How the data were processed

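The measurements are RNase footprints in mitochondria isolated from hearts of control and *Lrpprc* knockout mice. Per the methods, the authors pooled technical replicates, removed adapter sequence (cutadapt 1.10), mapped the reads to mm10 (Bowtie2), subtracted nuclear tRNA reads, kept proper pairs with a template of 15 to 35 nt, normalized 5′ coverage to library size, and called footprints of 8 to 40 nt at an FDR of 5%. The 2 deposited lists give position, strand, length, central C score (log10) and F score of each footprint as called by the authors. They also hold the authors' log2 fold change of the F score, which was not used. There are no read counts, so the depth is unknown and Wilson intervals (95%) cover the counting of footprints only.

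Genes were those of the GENCODE annotation of GRCm38 (mm10), and sequences were read from the same assembly. Centre accessibility is 10 to the power of the C score, and the flank value is that times 2 over the F score, a harmonic mean. Every member footprint is named. Members, lists and measures were chosen with earlier results of these data known. The 3′ acceptor strand was moved by 1 nt to leave the unpaired last base of the tRNA out, after pairing had been inspected. Flank accessibility, heavy-strand arm shares (tRNAs with at least 6 acceptor and 4 anticodon stem pairs), the lowest F scores and opposite-strand counts were added after values were seen.

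Alternatives were assignment by the footprint midpoint or by at least 50% of its length, either strand, a length of at least 10 nt, merging within 3 nt, an F score of at most 1, and genes extended by 3 nt. The scripts, run in Python 3.11.15 with NumPy 2.4.6, were tested on simulated data. Intervals used SciPy 1.17.1, and figures Matplotlib 3.10.9.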

Additional observations from a re-analysis of the deposited data

Results flagged for a closer look

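The plus strand opposite the light-strand genes was not part of the comparison, and it held footprints too. Opposite the 9 genes lay 7 footprints with no annotated gene on their own strand, 3 control-called and 4 knockout-called, all opposite mt-Nd6 or mt-Ty. Those opposite mt-Nd6 lie between the annotated mt-Nd5 and mt-Cytb genes of the plus strand, and the RNA that carries them was not determined. One of them, control-called at chrM 13825 to 13846 with an F score of 0.755, faced a footprint of mt-Nd6, the control-called one at chrM 13835 to 13850. This plus-strand footprint and the control-called one at chrM 13771 to 13799 are among the authors' high-confidence LRPPRC sites, which overlap sites cross-linked to LRPPRC. The cross-linking was done in mouse embryonic fibroblasts, whereas the footprints come from heart mitochondria. None of the control-called footprints on the light-strand genes is among the high-confidence sites. Nearly all of those sites lie on the plus strand, so few of the 31 control-called minus-strand footprints are among them either. The lists give no background level for footprints with no gene on their own strand.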

How the results depend on the processing

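The 10 counts, shares and medians for the light-strand genes were recomputed under 7 alternatives, and 66 of 70 values stayed within 1.5 times the count or within 1 SD over the footprints. The exceptions were the 6 knockout-called footprints on mt-Nd6 when either strand was counted, in place of 3, and 3 values with an F score of at most 1, a limit that removes footprints by construction: 6 knockout-called footprints on the light-strand genes in place of 10, 0 on mt-Nd6 in place of 3, and 21 nt covered in both lists in place of 38. No paired analysis was possible because each genotype has 1 track and no result comes from a test. The depth of the libraries is unknown, so it cannot be said how far shallow coverage of the light-strand RNAs limits the calls, and with few footprints per gene the presence of 1 more or fewer moves every share given here.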
